A study of Mus musculus with 31 samples.

Results

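Diabetic retinas were set against non-diabetic retinas over both mouse models of insulin-deficient diabetes at once, so that the effect measured is the one the models have in common within their own cohorts. All 31 of 31 arrays in the series were used, 15 diabetic and 16 non-diabetic. The Ins2Akita cohort held 9 arrays of Ins2Akita retina (genotype Ins2Akita/Ins2) and 8 arrays of wild-type (WT) retina (genotype Ins2/Ins2). The STZ cohort held 6 arrays of retina from mice given streptozotocin (STZ) and 8 arrays of untreated retina. All mice were of the C57BL/6J strain, and retinas were taken whole after 3 months of hyperglycaemia, as the design text of the series has it. The labels and the design text do not state the age or sex of the mice, the streptozotocin dose or the blood glucose. The shared effect is the diabetic minus non-diabetic difference in a linear model with the cohort as a second term, on the log2 scale, with its standard error (SE). A probe or gene was called when its adjusted p (limma, Benjamini-Hochberg over all 16743 probes tested) was under 0.05.

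The Ins2Akita allele encodes a misfolding proinsulin that damages the beta cells of the pancreas, and streptozotocin is a beta cell toxin taken up through the glucose transporter Glut2. Both leave the animal short of insulin and chronically hyperglycaemic, by routes that do not start in the eye. In the diabetic retina, neurons, Muller glia, microglia and the capillary wall are all known to be affected, and dysfunction of neurons and glia can precede visible vascular lesions.

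The retina label was borne out by its markers: probes of the photoreceptor genes Gnat1, Sag, Arr3 and Gnat2, the bipolar gene Grm6, the amacrine gene Gad1, the ganglion cell gene Thy1 and the Muller glia genes Glul and Rlbp1 were detected on all 31 arrays. The probes of Nefl and of the endothelial gene Cdh5 were detected on 0 arrays. Genes of neighbouring tissues were present too: Rpe65 and Ttr of the pigment epithelium were detected on all 31 arrays and the lens gene Cryaa on 29. Between 14581 and 16460 of 25697 probes were detected per array. Arrays within a group correlated at 0.968 to 0.994 over probes, and arrays of different groups at 0.954 to 0.991. The layout did not cross the groups: 8 Ins2Akita arrays filled BeadChip 1, 1 Ins2Akita array shared BeadChip 2 with the 6 STZ arrays, and the 8 WT and 8 untreated arrays each filled a chip of their own. No BeadChip held diabetic and non-diabetic arrays, so BeadChip and diabetes cannot be told apart in any result below. The labels do not tie each sample to an animal of its own, and the p-values therefore reflect the spread among these samples, which may be technical. WT array 7 stood apart from the other WT arrays, with the highest WT score for pigment epithelium genes (1.51), skeletal muscle genes (1.49) and interferon-stimulated genes (0.444). The count of interferon-stimulated genes called, and the changes of several genes, are given with and without it.

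The diabetic retinas differed from the non-diabetic ones in many genes by small amounts. Of 16743 probes, 556 (3.32%) were called, 261 higher and 295 lower, and 3263 had an unadjusted p under 0.05. On the brightest probe of each gene, 411 of 11172 genes (3.68%) were called, 215 higher (1.92%) and 196 lower (1.75%). The median called probe changed 1.19-fold. Only 10 called probes passed 1.5-fold, all of them higher in diabetic retinas, and 2 passed 2-fold, those of Ifi27l2a and Ch25h. The median change over all genes was -0.0022. The count rested on single arrays to some extent: it was 329 probes without WT array 6 and 819 without STZ array 5.

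Each cohort alone gave very different counts. Ins2Akita minus WT had 696 called probes (4.16%), whereas STZ minus untreated had 6 (0.0358%), all higher, with 1431 at an unadjusted p under 0.05. Of the 556 shared calls, 299 were also called in the Ins2Akita cohort alone, 6 in the STZ cohort alone, and 252 in neither, so these last were called only when the arrays of both cohorts were joined. An unadjusted p under 0.05 was reached in each cohort by 286 of them. The STZ effect was 0.72 times the Ins2Akita effect at the median of the called probes. These probes were chosen by the shared effect on the same arrays, in which the larger Ins2Akita cohort weighs more. That choice can itself lower the ratio, so it does not measure which model has the stronger effect. The cohorts share no arrays, but both effects were tested with one spread per probe. A probe of small spread is more readily called in each, so the p-values of the cohorts are not independent. Of the 696 probes called in the Ins2Akita cohort, 501 (72%) had the same sign in STZ minus untreated, against 59.7% of all probes tested. Of the same 696, 96 (13.8%) had that sign and an unadjusted p under 0.05 in the STZ cohort, against 6.17% of all probes. The common spread can raise the 13.8%. The cohort term of the same model was called for 5975 probes (35.7%), far more than the 556 of the shared effect. The cohorts lay on separate BeadChips but for 1 Ins2Akita array, so cohort and BeadChip can hardly be told apart in that term. No probe separated diabetic from non-diabetic arrays without overlap in both cohorts. The Ins2Akita and WT arrays did not overlap for 77 of all probes (0.46%), 44 of them among the shared calls. The STZ and untreated arrays did not overlap for 35 of all probes (0.209%), 14 of them among the shared calls.

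**Figure D1:**
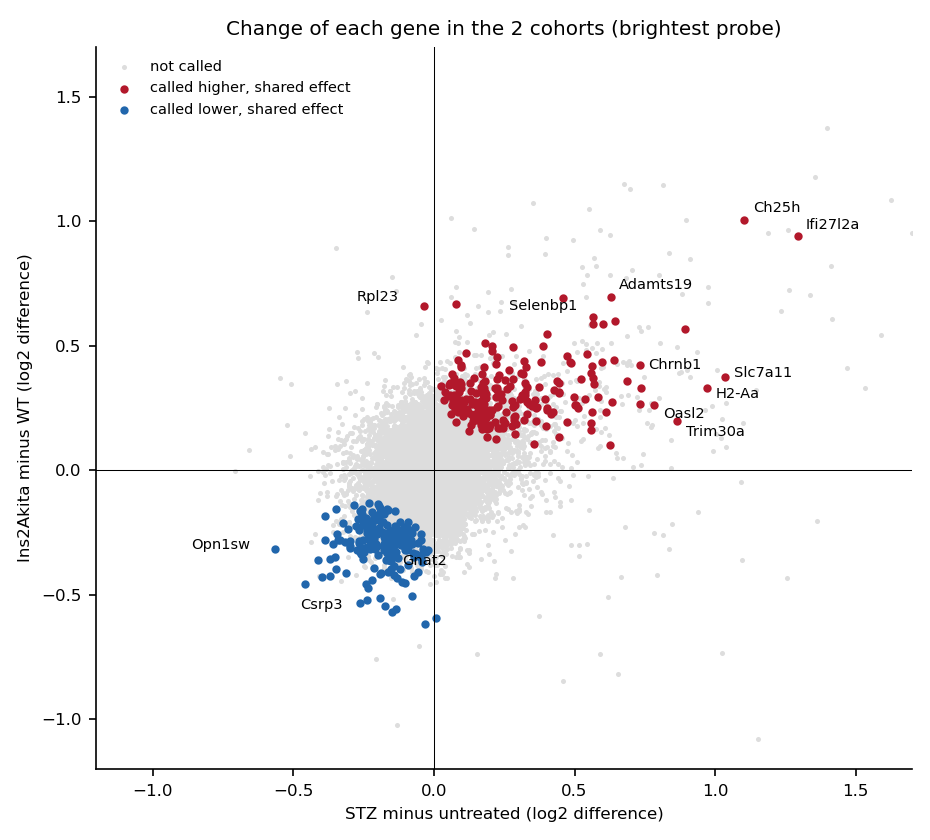
Each point is a gene on its brightest probe, with its STZ minus untreated difference on the x axis and its Ins2Akita minus WT difference on the y axis, both in log2 units. Of the 411 called genes, the 215 higher ones (red) and 196 lower ones (blue) fill the upper right and lower left of the plot, while Rpl23 lies close to the y axis; 15 genes, 0 of them called, lie outside the axes.

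Of the 40 gene lists, interferon-stimulated genes had the highest share of called members. These genes are switched on by interferons, and their products restrict viruses and present antigen. Of 28 measured members, 9 rose (32.1%, against 1.92% of all genes), 0 fell and 19 did not pass, and 25 of 28 lay above 0. Their median change was 0.29, against -0.0022 over all genes. The members that rose were Ifi27l2a, Ifitm3, Ifitm2, Ifi27, Oasl2, Trim30a, Rsad2, Gbp3 and Gbp7. Promoters of such genes have a known core, the interferon-stimulated response element, searched here as GAAA and GAAA with 2 bases of any kind between them, on both strands. Promoters of members that hold it are shown with the match in capitals. Windows run from 250 bases before to 50 after the gene start, from RefSeq on GRCm38.p6. Rsad2 lies at chr12:26456403-26456702, minus strand, Trim30a at chr7:104465144-104465443, minus strand, Gbp3 at chr3:142559794-142560093, plus strand and Ifitm3 at chr7:141010695-141010994, minus strand. The Gbp3 window holds 2 overlapping matches and the Ifitm3 window 2 separate ones.
Rsad2: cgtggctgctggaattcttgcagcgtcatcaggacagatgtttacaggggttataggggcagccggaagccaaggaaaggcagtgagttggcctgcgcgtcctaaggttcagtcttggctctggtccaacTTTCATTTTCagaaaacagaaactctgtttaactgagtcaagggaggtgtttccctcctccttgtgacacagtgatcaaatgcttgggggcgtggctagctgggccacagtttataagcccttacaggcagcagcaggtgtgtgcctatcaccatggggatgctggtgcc
Trim30a: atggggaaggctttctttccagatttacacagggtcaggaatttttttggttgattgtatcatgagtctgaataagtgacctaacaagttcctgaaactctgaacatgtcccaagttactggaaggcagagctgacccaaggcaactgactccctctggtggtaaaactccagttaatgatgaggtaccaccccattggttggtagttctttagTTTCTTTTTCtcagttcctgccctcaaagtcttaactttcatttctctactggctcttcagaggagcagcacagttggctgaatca
Gbp3: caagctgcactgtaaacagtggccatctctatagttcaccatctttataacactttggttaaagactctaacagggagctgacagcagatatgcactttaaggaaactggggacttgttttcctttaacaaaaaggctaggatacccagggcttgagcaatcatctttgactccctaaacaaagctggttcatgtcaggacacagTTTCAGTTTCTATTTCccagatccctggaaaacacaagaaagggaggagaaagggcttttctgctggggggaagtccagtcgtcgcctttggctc
Ifitm3: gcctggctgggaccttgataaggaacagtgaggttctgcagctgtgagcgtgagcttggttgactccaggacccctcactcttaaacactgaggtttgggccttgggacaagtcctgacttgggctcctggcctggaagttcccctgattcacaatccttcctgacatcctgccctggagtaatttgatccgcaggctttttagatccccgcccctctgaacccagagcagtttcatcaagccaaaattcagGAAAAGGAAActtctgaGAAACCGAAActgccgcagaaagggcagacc
The same core is in the windows of Gbp7 and Ifitm2, and the window of Oasl2 holds none. Windows were matched for 7 of the 9 members, which leaves 6 of 7 with a match. It was also in 8 of 16 windows of interferon-stimulated genes that were not called, in 250 of 9040 windows (2.77%) of all genes tested, in 14 of 186 (7.53%) of called genes that rose and in 9 of 165 (5.45%) of those that fell. A match describes these letters only.

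Ifi27l2a, a small hydrophobic protein gene strongly induced by interferon, had the largest rise of all named genes. Its log2 intensity ran from 5.77 to 8.85 (median 6.13) on Ins2Akita arrays, against 5.30 to 6.99 (median 5.77) on WT arrays. It ran from 6.27 to 8.25 (median 7.05) on STZ arrays, against 4.99 to 6.69 (median 5.87) on untreated arrays. The groups overlapped in both cohorts, and the top WT value, 6.99, was that of WT array 7. The shared rise was 1.10 (SE 0.26), or 2.14-fold (limma adjusted p = 0.019).

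Oasl2, a relative of the oligoadenylate synthetases that sense viral RNA, had the smallest p of the list. It ran from 8.58 to 9.65 (median 9.13) on STZ arrays, against 8.22 to 8.69 (median 8.30) on untreated arrays. It ran from 8.45 to 9.14 (median 8.63) on Ins2Akita arrays, against 8.15 to 9.03 (median 8.42) on WT arrays. The STZ arrays lay above the untreated ones but for a small overlap, while the Ins2Akita and WT ranges overlapped through most of their length. The shared rise was 0.49 (SE 0.10, limma adjusted p = 0.0072), and a dimmer probe of the gene gave 0.20 (adjusted p = 0.263). Rsad2, which encodes viperin, an enzyme that makes a chain-terminating nucleotide, rose by 0.48 (SE 0.099, adjusted p = 0.0086). Its lowest STZ array, 6.19, was below its highest untreated array, 6.28, by little. The difference between the models had an unadjusted p of 0.0072 for Oasl2 and 0.017 for Rsad2, and neither passed adjustment over all probes.

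Ifitm3 and Ifitm2 encode membrane proteins that block viral fusion, and rose by 0.71 (SE 0.18, limma adjusted p = 0.026) and 0.62 (SE 0.17, adjusted p = 0.040). They are close paralogs on mouse chromosome 7 whose probes may share signal, so their values are uncertain as separate measurements. The guanylate-binding protein genes Gbp3 and Gbp7, GTPases of cell-autonomous immunity, rose by 0.34 and 0.33. Trim30a, a ubiquitin ligase gene that restrains inflammatory signalling, rose by 0.50, with 0.20 in the Ins2Akita cohort and 0.87 in the STZ cohort. Over the 28 members the median change was 0.15 in the Ins2Akita cohort and 0.47 in the STZ cohort. In the Ins2Akita cohort alone 1 member was called, where 4.37% of all genes were. In the STZ cohort alone 4 were, out of 5 genes (0.0448%) called there in all. Without WT array 7 the shared count was 15 members in place of 9. With the scores of the neighbouring-tissue lists as covariates it was 3. Oasl2 and Rsad2 passed at 0.45 and 0.43. Ifi27l2a, Ifitm3, Ifitm2 and Gbp7 did not, at 0.73, 0.44, 0.32 and 0.31, so that the change of Gbp7 was close to its value without covariates and that of Ifitm2 was not.

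**Figure D2:**
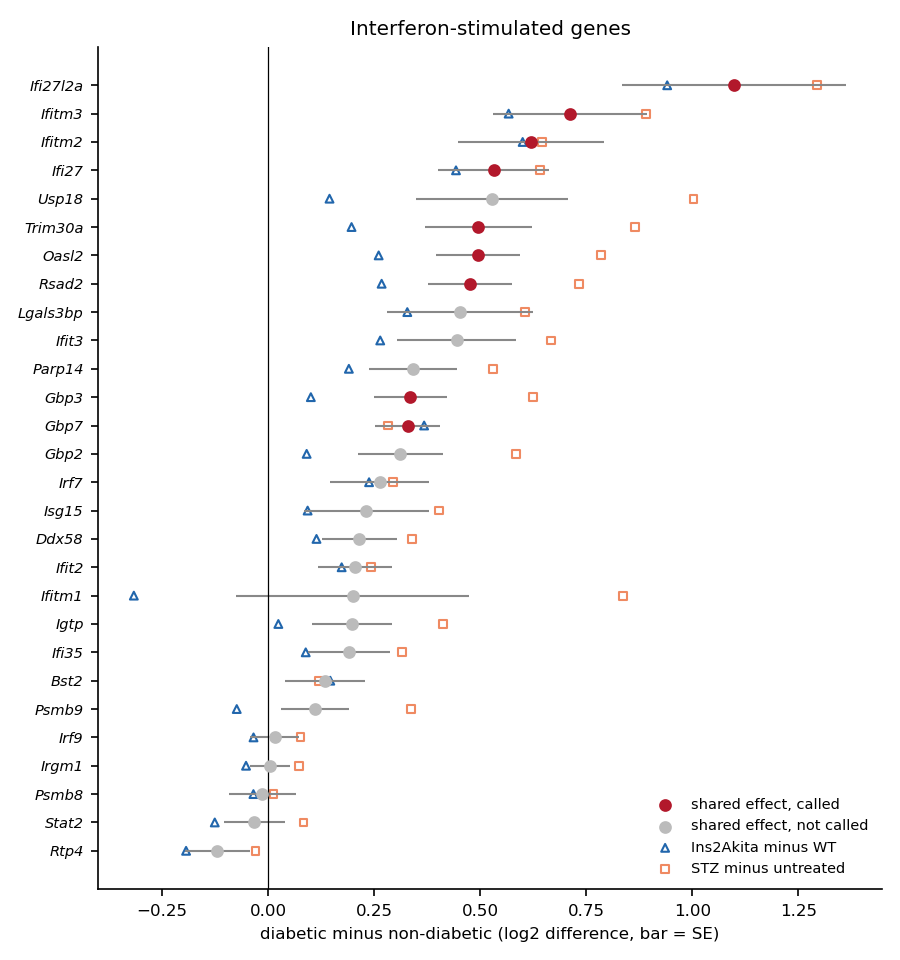
The 28 measured interferon-stimulated genes are ordered by their shared change (circles, with SE bars) on a log2 axis; triangles give Ins2Akita minus WT and squares STZ minus untreated. The 9 called members (red) all lie to the right of 0, and for Trim30a, Oasl2, Rsad2 and Gbp3 the square lies well to the right of the triangle.

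Class II antigen presentation genes were also among the rises. The complement and antigen presentation list had 3 of 18 members higher (16.7%, against 1.92% of all genes), 0 lower, 15 not called and a median of 0.15. The 3 were H2-Aa, H2-Ab1 and H2-Eb1, which encode the alpha and beta chains of the major histocompatibility complex class II molecules that professional antigen-presenting cells carry. H2-Ab1 ran from 5.80 to 6.74 (median 6.17) on Ins2Akita arrays, against 5.31 to 6.41 (median 5.91) on WT arrays. It ran from 5.74 to 6.79 (median 6.27) on STZ arrays, against 5.20 to 6.14 (median 5.89) on untreated arrays. The ranges overlapped in both cohorts with the diabetic group shifted upward. H2-Ab1 rose by 0.48 (SE 0.12, limma adjusted p = 0.023), and of its other probes one more passed, at 0.42 (adjusted p = 0.0256). H2-Aa rose by 0.62 (adjusted p = 0.049) and H2-Eb1 by 0.46 (adjusted p = 0.015). H2-Eb1 was dim, detected on 4 of 9 Ins2Akita, 1 of 8 WT, 5 of 6 STZ and 3 of 8 untreated arrays. It met the filter of detection on 6 arrays only through the diabetic arrays, where it was higher, and the 16.7% includes it. The windows of H2-Eb1 (chr17:34305617-34305916, plus strand) and H2-Aa (chr17:34287774-34288073, minus strand) are shown because both hold the Y box, CTGATTGG, a known element of class II promoters, here in capitals.
H2-Eb1: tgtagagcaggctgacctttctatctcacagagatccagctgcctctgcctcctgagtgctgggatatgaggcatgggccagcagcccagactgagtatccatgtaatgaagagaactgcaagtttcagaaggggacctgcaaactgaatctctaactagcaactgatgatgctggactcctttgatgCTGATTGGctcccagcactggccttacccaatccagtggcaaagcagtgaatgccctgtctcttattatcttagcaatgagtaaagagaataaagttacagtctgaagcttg
H2-Aa: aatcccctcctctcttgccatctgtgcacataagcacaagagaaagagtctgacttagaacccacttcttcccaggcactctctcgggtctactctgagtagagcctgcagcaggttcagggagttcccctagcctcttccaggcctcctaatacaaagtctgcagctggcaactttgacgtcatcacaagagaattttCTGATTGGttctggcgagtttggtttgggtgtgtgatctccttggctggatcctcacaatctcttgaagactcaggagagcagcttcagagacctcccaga
The Y box was in 2 of 2 class II windows matched and in 497 of 9040 (5.5%) of all. It was in 7 of 186 windows (3.76%) of called genes that rose and in 12 of 165 (7.27%) of those that fell. With the neighbouring-tissue scores as covariates 0 of the 3 passed, and the changes were 0.39 for H2-Ab1, 0.37 for H2-Eb1 and 0.34 for H2-Aa. Without the 4 arrays of the highest pigment epithelium score 0 passed either, at 0.40, 0.37 and 0.52. Of 16 microglia and macrophage genes 0 were called, with a median of 0.043. Trem2, the receptor gene with the smallest p there, was at -0.23 (adjusted p = 0.095).

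The most certain single changes were in genes outside these lists. Chrnb1 encodes the beta subunit of the muscle-type nicotinic acetylcholine receptor. It ran from 7.79 to 8.40 (median 7.92) on Ins2Akita arrays, against 7.26 to 7.94 (median 7.58) on WT arrays. It ran from 7.78 to 8.75 (median 8.31) on STZ arrays, against 7.28 to 7.79 (median 7.59) on untreated arrays. In each cohort every diabetic array lay above the median of the non-diabetic arrays, with an overlap at the edges. Chrnb1 rose by 0.56 (SE 0.081, limma adjusted p = 0.00052), and was called in each cohort alone, at 0.42 (adjusted p = 0.016) in Ins2Akita and 0.73 (adjusted p = 0.0075) in STZ. A second probe gave 0.53 (adjusted p = 0.0057). It was the sole one called of 11 measured nicotinic receptor genes (9.09%, where 1.92% of all genes rose), whose median was -0.03.

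Minar2, a membrane protein gene needed for hearing in mice, ran from 10.95 to 11.21 on Ins2Akita arrays, against 10.55 to 10.84 on WT arrays. It ran from 10.93 to 11.25 on STZ arrays, against 10.75 to 10.99 on untreated arrays. The Ins2Akita and WT arrays did not overlap, and the STZ and untreated arrays did. Minar2 rose by 0.31 (SE 0.045, limma adjusted p = 0.00052), with 0.41 in the Ins2Akita cohort and 0.18 in the STZ cohort. Ch25h, the enzyme that makes the antiviral oxysterol 25-hydroxycholesterol, ran from 4.49 to 6.79 (median 5.93) on Ins2Akita arrays, against 4.45 to 5.99 (median 4.74) on WT arrays. It ran from 5.68 to 7.16 (median 6.18) on STZ arrays, against 4.33 to 6.38 (median 5.30) on untreated arrays. Ch25h was dim in non-diabetic retina, detected on 3 of 8 WT and 5 of 8 untreated arrays, against 8 of 9 Ins2Akita and 6 of 6 STZ arrays. Its rise was 1.05 (SE 0.20), or 2.07-fold (limma adjusted p = 0.0070), and nearly the same in both cohorts, at 1.01 and 1.10. Ch25h was the one called of 13 measured sterol genes (7.69%, where 1.92% of all genes rose), whose median was 0.033.

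Other rises were spread over many roles. Selenbp1, a methanethiol oxidase gene, rose by 0.59 (SE 0.11, limma adjusted p = 0.0057), and its STZ arrays, 8.06 to 8.84, lay wholly above the untreated arrays, 7.41 to 8.00. Adamts19, a secreted metalloprotease gene, rose by 0.67 (adjusted p = 0.0057), and was detected on 9 of 9 Ins2Akita arrays against 3 of 8 WT arrays, and on 6 of 6 STZ arrays against 7 of 8 untreated arrays. Slc7a11, the cystine-glutamate exchanger that supplies cystine for glutathione, rose by 0.67 (adjusted p = 0.046), with 0.37 in the Ins2Akita cohort and 1.04 in the STZ cohort. Rasa2, a Ras GTPase-activating protein gene, and Tspan14, a tetraspanin that escorts the protease Adam10, rose by 0.38 (adjusted p = 0.00061) and 0.40 (adjusted p = 0.0013). Sat1, the rate-limiting enzyme of polyamine breakdown, rose by 0.25 (adjusted p = 0.0053). Its STZ arrays, 10.14 to 10.42, lay above the untreated arrays, 9.88 to 10.06. Smagp, a small transmembrane protein gene, rose by 0.59 (adjusted p = 0.0070) on its brightest probe, and its other probe was at 0.13 (adjusted p = 0.512). Rnase4, a secreted ribonuclease gene, rose by 0.59 (adjusted p = 0.041), with its other probe at 0.09 (adjusted p = 0.768). Spsb1, an adaptor of a ubiquitin ligase, rose by 0.58 (adjusted p = 0.034).

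**Figure D3:**
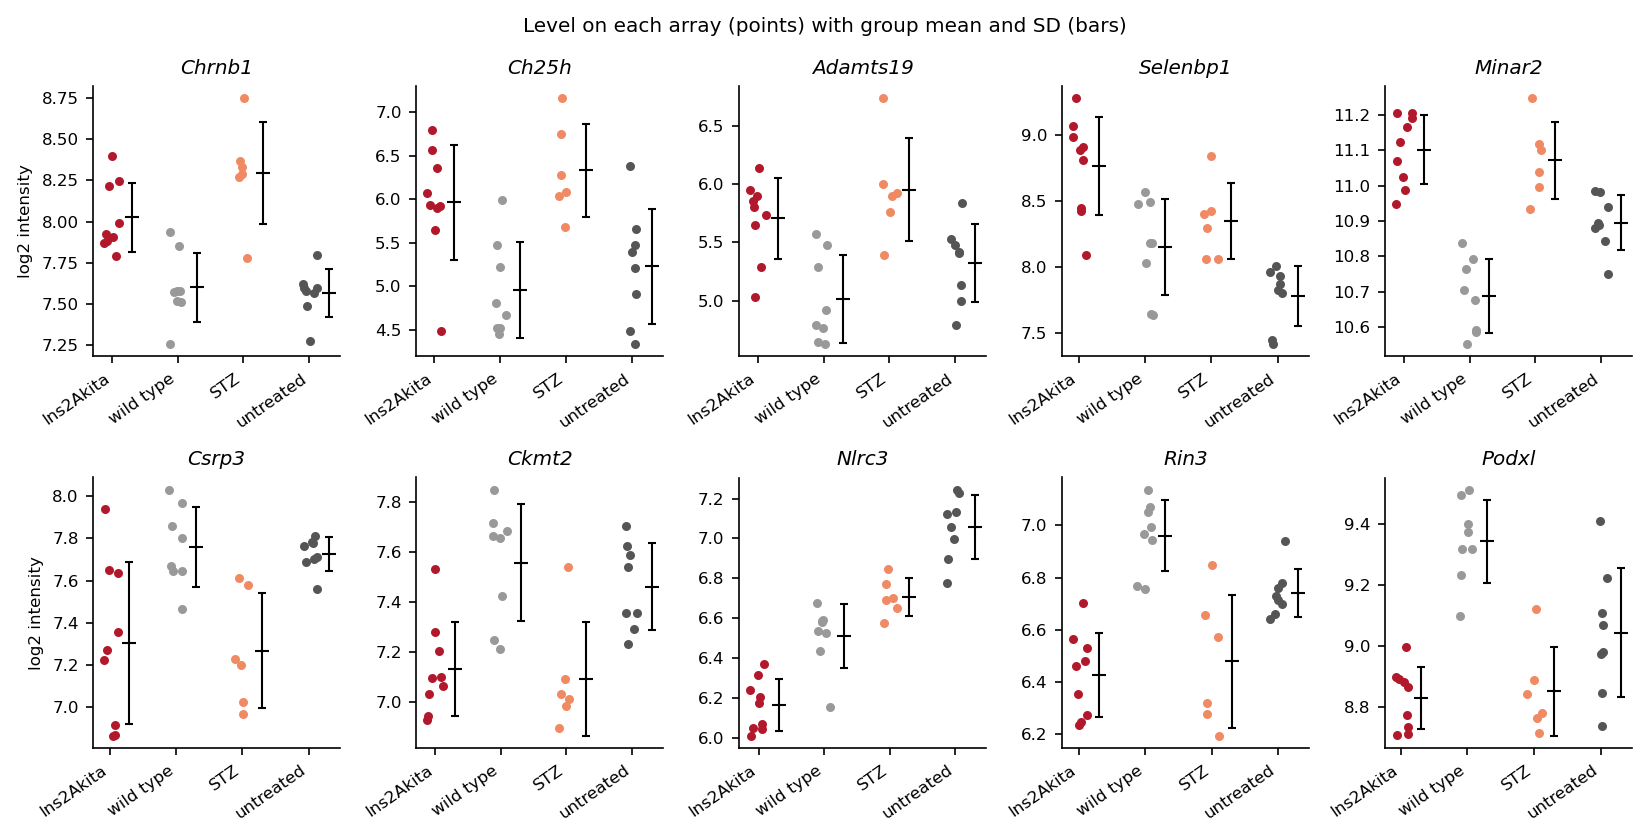
The log2 intensity (y axis) of 10 genes is drawn for each array (points) with group means and SD (bars), for Ins2Akita, WT, STZ and untreated retina from left to right. Chrnb1, Ch25h, Adamts19, Selenbp1 and Minar2 in the upper row sit higher in each diabetic group than in its neighbour, and Csrp3, Ckmt2, Nlrc3, Rin3 and Podxl in the lower row sit lower.

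The falls were smaller than the rises, and photoreceptor genes were among them. Cones are the photoreceptors of daylight and colour vision, a small minority of the photoreceptors of a mouse retina, and in bulk RNA fewer cells of a type and less RNA per cell cannot be told apart. Of 13 measured cone genes 3 fell (23.1%, against 1.75% of all genes), 0 rose and 11 lay below 0, with a median of -0.16, against -0.0022 over all genes. The 3 were Opn1sw, Kcne2 and Gnat2. Opn1sw, the short-wavelength cone opsin, ran from 7.24 to 7.90 (median 7.60) on Ins2Akita arrays, against 7.67 to 8.39 (median 7.80) on WT arrays. It ran from 6.44 to 7.46 (median 7.05) on STZ arrays, against 7.13 to 7.96 (median 7.70) on untreated arrays. The ranges overlapped in both cohorts, with the diabetic medians below the non-diabetic ones. Opn1sw fell by 0.43 on the log2 scale (SE 0.098, limma adjusted p = 0.014), or 1.34-fold lower. Gnat2, the alpha subunit of cone transducin, fell by 0.27 (SE 0.052, adjusted p = 0.0070). Its Ins2Akita arrays, 9.85 to 10.07, lay wholly below the WT arrays, 10.14 to 10.53, while the STZ arrays, 9.78 to 10.24, overlapped the untreated arrays, 9.88 to 10.31. Kcne2, an accessory subunit of potassium channels, fell by 0.37 (SE 0.074, adjusted p = 0.0072), with -0.56 in the Ins2Akita cohort and -0.14 in the STZ cohort. All 3 remained called with each array left out and under the 15 other alternatives, tissue covariates included.

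Of 22 measured rod genes 3 fell (13.6%, against 1.75% of all genes) and 0 rose. Of the 22, 14 lay below 0 and 8 above, with a median of -0.08. Abca4, the flippase that clears retinaldehyde from outer segment discs, fell by 0.22 (limma adjusted p = 0.032). Its other probes were at -0.23 and -0.28, not called. Slc24a1, the rod sodium-calcium-potassium exchanger, fell by 0.19 (adjusted p = 0.035), with -0.32 in the Ins2Akita cohort and -0.037 in the STZ cohort. Its difference between the models had an unadjusted p of 0.0051 (limma) and did not pass adjustment. Pde6a, the catalytic alpha subunit of the rod phosphodiesterase, fell by 0.15 (adjusted p = 0.047), and its other probe was at -0.10 (adjusted p = 0.69). The rod calls were fragile: leaving out single arrays gave between 0 and 5 called members, with 0 without Ins2Akita array 1, 4 or 6 and 5 without STZ array 5. It was also 0 with median scaling. The letters GGATTA, a core bound by the photoreceptor factor Crx, were in 2 of 5 windows matched for the called rod and cone genes, those of Gnat2 and Abca4, and in 6.02% of all windows. They were in 9 of 165 windows (5.45%) of called genes that fell and in 11 of 186 (5.91%) of those that rose. Interferon-stimulated genes that were not called held them in 4 of 16 windows. Bipolar cells, the interneurons behind the photoreceptors, had 1 of 12 genes higher and 1 lower (8.33% each, against 1.92% and 1.75% of all genes). Prkca, the rod bipolar kinase, rose by 0.25 (adjusted p = 0.014) and Pcp2, a G protein modulator, fell by 0.23 (adjusted p = 0.027). Among 16 amacrine and horizontal cell genes Slc5a7, the choline transporter of cholinergic amacrine cells, rose by 0.26 (adjusted p = 0.046). Among 14 ganglion cell genes Uchl1, a neuronal ubiquitin hydrolase, fell by 0.22 (adjusted p = 0.017). These single calls were 6.25% and 7.14% of their lists, where 1.92% of all genes rose and 1.75% fell. None of 18 synaptic genes was called, and their median was -0.049.

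Csrp3, the muscle LIM protein gene, had the largest fall among the named genes that passed. It ran from 6.87 to 7.94 (median 7.27) on Ins2Akita arrays, against 7.47 to 8.03 (median 7.74) on WT arrays. It ran from 6.97 to 7.61 (median 7.21) on STZ arrays, against 7.56 to 7.81 (median 7.74) on untreated arrays. The untreated arrays were tightly grouped, and each diabetic group reached well below its partner with some overlap at the top. Csrp3 fell by 0.46 (SE 0.090, limma adjusted p = 0.0070), by the same amount in each cohort (-0.46 in both). Its other probes gave -0.51 (adjusted p = 0.00347) and -0.29 (adjusted p = 0.0866). Ckmt2, a mitochondrial creatine kinase of striated muscle, fell by 0.40 (adjusted p = 0.0049) on one probe, and its other probe was at -0.08 (adjusted p = 0.832). Of 12 skeletal muscle genes 0 were called, with a median of -0.058, and the muscle score was 0.076 ± 0.714 on Ins2Akita, 0.138 ± 0.552 on WT, -0.157 ± 0.122 on STZ and -0.105 ± 0.0793 on untreated arrays (mean and SD; n = 9, 8, 6 and 8). Csrp3 also passed without Ins2Akita array 8 and WT array 7, the arrays of a muscle score above 1.

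Nlrc3, a dampener of innate immune signalling, had the smallest p of the named falls. It ran from 6.01 to 6.37 (median 6.17) on Ins2Akita arrays, against 6.16 to 6.68 (median 6.56) on WT arrays. It ran from 6.57 to 6.85 (median 6.70) on STZ arrays, against 6.78 to 7.24 (median 7.09) on untreated arrays. The diabetic group lay lower in each cohort with little overlap, while the STZ cohort as a whole lay higher than the Ins2Akita cohort. Nlrc3 fell by 0.35 (SE 0.052, limma adjusted p = 0.00052), with -0.35 in each cohort. Rin3, a guanine nucleotide exchange factor gene of early endosomes, fell by 0.41 (SE 0.064, adjusted p = 0.00065), and its Ins2Akita arrays lay wholly below the WT arrays. Podxl, the sialomucin podocalyxin of endothelial and other surfaces, fell by 0.37 (SE 0.062, adjusted p = 0.0023), with -0.51 in the Ins2Akita cohort and -0.19 in the STZ cohort. The difference between the models had an unadjusted p of 0.0078 for Podxl and did not pass adjustment. Cpsf2 and Cpsf3, partner subunits of the complex that cleaves messenger RNA before polyadenylation, both fell, by 0.39 (adjusted p = 0.0049) and 0.37 (adjusted p = 0.0081). Alox5ap, the activating protein of leukotriene synthesis, fell by 0.42 (adjusted p = 0.022) and Rnf123, a ubiquitin ligase gene, by 0.38 (adjusted p = 0.0097). Cldn7, an epithelial tight junction gene, fell by 0.38 (adjusted p = 0.028), with -0.55 in the Ins2Akita cohort and -0.18 in the STZ cohort. Zpld2 fell by 0.38 (adjusted p = 0.0070) from a level near background, detected on 7 of 9 Ins2Akita, 8 of 8 WT, 4 of 6 STZ and 7 of 8 untreated arrays. It was at -0.57 in the Ins2Akita cohort and -0.15 in the STZ cohort.

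Ribosomal protein genes and genes of the respiratory chain leaned downward by small amounts. Of 55 cytosolic ribosomal protein genes, 9 fell (16.4%, against 1.75% of all genes), 1 rose and 50 lay below 0, with a median of -0.086. Rps15 ran from 11.01 to 11.27 (median 11.08) on Ins2Akita arrays, against 11.18 to 11.78 (median 11.44) on WT arrays. It ran from 10.65 to 10.91 (median 10.85) on STZ arrays, against 10.71 to 11.13 (median 11.07) on untreated arrays. The ranges overlapped, with both diabetic medians lower. Rps15 fell by 0.27 (SE 0.053, limma adjusted p = 0.0072), Rpl19 by 0.27 and Rpl27a by 0.17. Rpl19 was at -0.40 in the Ins2Akita cohort and -0.12 in the STZ cohort. Near-identical processed copies of ribosomal protein genes are many, which makes any single member uncertain. The one rise, Rpl23 at 0.35 (adjusted p = 0.012), came from 0.66 in the Ins2Akita cohort and -0.03 in the STZ cohort, and its other probes gave -0.12, -0.24 and -0.05, none of them called. The ribosomal count depended on the scaling: 1 member fell with median scaling in place of quantile normalization, and 1 with the neighbouring-tissue covariates. It was 5 without Ins2Akita array 1, 4 or 6 or WT array 6.

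Of 72 genes of oxidative phosphorylation, the mitochondrial respiratory chain and ATP synthase, 6 fell (8.33%, against 1.75% of all genes), 1 rose and 53 lay below 0, with a median of -0.058. Atp5e, a small subunit of ATP synthase, fell by 0.31 (SE 0.066, limma adjusted p = 0.0096), Ndufb5 of complex I by 0.30 (adjusted p = 0.014) and Atp5pb of the ATP synthase stalk by 0.25 (adjusted p = 0.018). Ndufb5 was at -0.43 in the Ins2Akita cohort and -0.13 in the STZ cohort. Atp5g3, which encodes the c subunit of the ATP synthase ring, rose by 0.17 (adjusted p = 0.012). Its Ins2Akita arrays, 13.66 to 13.81, lay wholly above the WT arrays, 13.43 to 13.62. The call of Atp5g3 was lost with median scaling, at 0.14 (adjusted p = 0.141). The number of members that fell was 3 without WT array 6 and with median scaling, and 2 with the neighbouring-tissue covariates and without the 4 arrays of the highest pigment epithelium score. Of 38 proteasome genes Psmd8, a lid subunit, fell by 0.21 (adjusted p = 0.020), and of 15 heat shock and chaperone genes Cct3, a subunit of the cytosolic chaperonin, fell by 0.17 (adjusted p = 0.031). These single calls were 2.63% and 6.67% of their lists, against 1.75% of all genes. The other probe of Cct3 was at -0.05 (adjusted p = 0.78).

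Genes of glia, vessels and oxygen supply gave few calls each. Car14, a membrane carbonic anhydrase of Muller glia, ran from 10.23 to 10.74 (median 10.58) on Ins2Akita arrays, against 9.83 to 10.49 (median 9.94) on WT arrays. It ran from 9.88 to 10.08 (median 10.01) on STZ arrays, against 9.52 to 9.99 (median 9.78) on untreated arrays. The diabetic medians were higher and the ranges overlapped. Car14 rose by 0.35 (SE 0.069, limma adjusted p = 0.0070) and was the one called of 20 Muller glia genes (5%, where 1.92% of all genes rose). Of 13 gliosis and acute phase genes Lcn2, lipocalin 2, rose by 0.37 (adjusted p = 0.044), and 12 of the 13 lay above 0. Lcn2 was the one call of that list (7.69%). Gfap, the intermediate filament of reactive glia, was at 0.14 (adjusted p = 0.27) and near background, detected on 5 of 9 Ins2Akita, 2 of 8 WT, 0 of 6 STZ and 0 of 8 untreated arrays.

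Vegfa, the main growth factor of vessel permeability and sprouting, ran from 11.30 to 11.69 (median 11.47) on Ins2Akita arrays, against 10.90 to 11.45 (median 11.21) on WT arrays. It ran from 11.52 to 11.78 (median 11.58) on STZ arrays, against 11.41 to 11.64 (median 11.53) on untreated arrays. The STZ and untreated ranges were nearly alike. Vegfa rose by 0.18 (SE 0.049, limma adjusted p = 0.034), with 0.26 in the Ins2Akita cohort and 0.10 in the STZ cohort. Its other probe was at 0.08 (adjusted p = 0.528). The call of Vegfa was lost with the neighbouring-tissue covariates, at 0.18 (adjusted p = 0.0999), and with median scaling, at 0.18 (adjusted p = 0.0735). Of 14 hypoxia response genes 2 rose (14.3%, against 1.92% of all genes) and 0 fell. They were Slc2a1, the glucose transporter of the blood-retina barrier, at 0.30 (SE 0.070, adjusted p = 0.015), and Egln3, an oxygen-sensing prolyl hydroxylase, at 0.37 (SE 0.088, adjusted p = 0.019). With the neighbouring-tissue covariates they were at 0.22 (adjusted p = 0.0722) and 0.28 (adjusted p = 0.0525). Among 11 genes of pericytes and smooth muscle 6 lay above 0, with a median of 0.032, and 2 fell (18.2%, against 1.75% of all genes). They were Vtn, the adhesive protein vitronectin, by 0.24 (adjusted p = 0.014) and Cspg4, the proteoglycan NG2, by 0.32 (adjusted p = 0.026). Vtn was bright, at a mean log2 intensity of 12.50, and Cspg4 dim, at 5.41. Which cells gave the Vtn signal was not tested. Of 19 matrix genes Timp2, a metalloprotease inhibitor, and Lamc1, a laminin chain, rose by 0.28 (adjusted p = 0.031) and 0.21 (adjusted p = 0.0498), and Mmp9, a gelatinase, fell by 0.22 (adjusted p = 0.029). That is 10.5% higher and 5.26% lower, against 1.92% and 1.75% of all genes. With the tissue covariates Timp2 was at 0.21, Lamc1 at 0.16, Mmp9 at -0.20 and Cspg4 at -0.34, and none of these passed. Vtn did pass with them, at -0.26.

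Several lists tied to diabetes had no called gene. None passed among 14 glycolysis genes (median -0.057), 19 insulin and IGF signalling genes (median 0.022), 13 fasting and fatty acid oxidation genes (median 0.068), 18 endoplasmic reticulum stress genes (median -0.0088), 12 glucocorticoid-induced genes (median 0.088), 15 immediate early genes (median -0.053) or 5 adhesion and chemokine genes (median 0.060). A dimmer probe of the glycolysis gene Pfkl did pass, at -0.24 (limma adjusted p = 0.0393), while its brightest probe was at -0.15 (adjusted p = 0.086). Txnip, the glucose-induced inhibitor of thioredoxin, was at 0.23 (SE 0.11, limma adjusted p = 0.24). It ran from 6.53 to 7.61 on Ins2Akita arrays, against 6.55 to 7.50 on WT arrays, an almost complete overlap. It ran from 6.85 to 7.61 on STZ arrays, against 6.29 to 7.20 on untreated arrays, and these overlapped in part. Egr1, an activity-induced transcription factor, was at -0.81 (SE 0.38, adjusted p = 0.23), with -1.78 in the Ins2Akita cohort and 0.38 in the STZ cohort. The probe of Ins2 itself was detected on 2 arrays and was not tested. Single members fell in lists with no rise: Tkt, transketolase of the pentose phosphate pathway, by 0.21 (adjusted p = 0.046), Gpx4, the glutathione peroxidase of lipid peroxides, by 0.19 (adjusted p = 0.044), and Tef, a clock output factor, by 0.17 (adjusted p = 0.046). They made up 7.14%, 5% and 6.67% of their lists, where 1.75% of all genes fell. The other probe of Gpx4 was at -0.0022 (adjusted p = 0.99). Tkt had further probes at -0.07 and -0.14 and Tef had one at -0.15, none of them called. On its brightest probe Tkt was at -0.34 in the Ins2Akita cohort and -0.05 in the STZ cohort. Bcl2l1, the anti-apoptotic Bcl-xL gene, rose by 0.22 (adjusted p = 0.019), with its other probes at 0.14 and 0.16, not called.

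**Figure D4:**
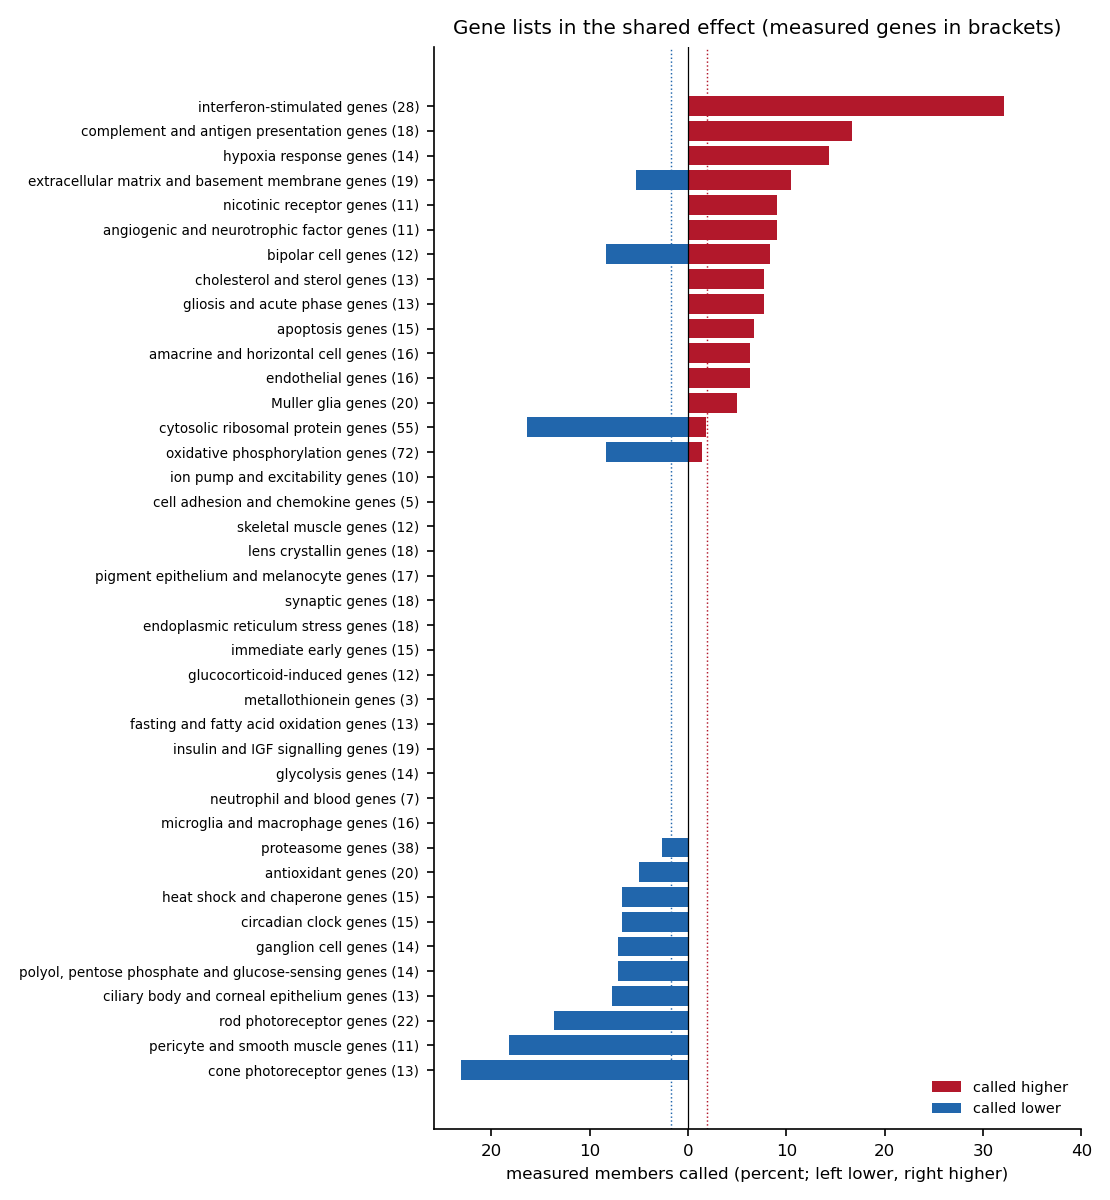
Bars give the percent of each list's measured genes called higher (red, to the right) and lower (blue, to the left) in the shared effect, and dotted lines mark the percent over all genes, 1.92% and 1.75%. Interferon-stimulated genes reach 32.1% to the right and cone genes 23.1% to the left.

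Genes of tissue next to the retina varied widely between arrays of the same group. All 17 pigment epithelium and melanocyte genes lay above 0 in the shared effect, with a median of 0.34, and 0 were called. The score of that list, its mean log2 level on an array less the mean over the 31 arrays, was 0.287 ± 0.802 on Ins2Akita arrays, against -0.289 ± 0.922 on WT arrays (SD, n = 9 and 8). It was 0.245 ± 0.567 on STZ arrays, against -0.217 ± 0.902 on untreated arrays (SD, n = 6 and 8). Each group spanned more than the difference between groups. The lens crystallin genes had a median of -1.54 in the Ins2Akita cohort and 1.17 in the STZ cohort, and 0 of 18 were called. With the scores of the neighbouring-tissue lists as covariates 166 probes were called, and without the 4 arrays of the highest pigment epithelium score, Ins2Akita arrays 1 and 4, WT array 7 and STZ array 3, 237 were called. Of 66 called genes named here, 35 passed with the covariates and 31 did not. H2-Aa, Ifitm2, Slc7a11, Lamc1, Lcn2, Pde6a, Slc5a7, Tef, Tkt and Gpx4 lay near the threshold, and each lost its call with any of 15 or more single arrays left out, while its change kept its direction. Of 7 neutrophil and blood genes 0 were called. S100a8, a subunit of calprotectin, was at -0.62 (limma adjusted p = 0.067), with -1.02 in the Ins2Akita cohort and -0.13 in the STZ cohort, and was detected on 3 of 9 Ins2Akita, 8 of 8 WT, 2 of 6 STZ and 4 of 8 untreated arrays.

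**Figure D5:**
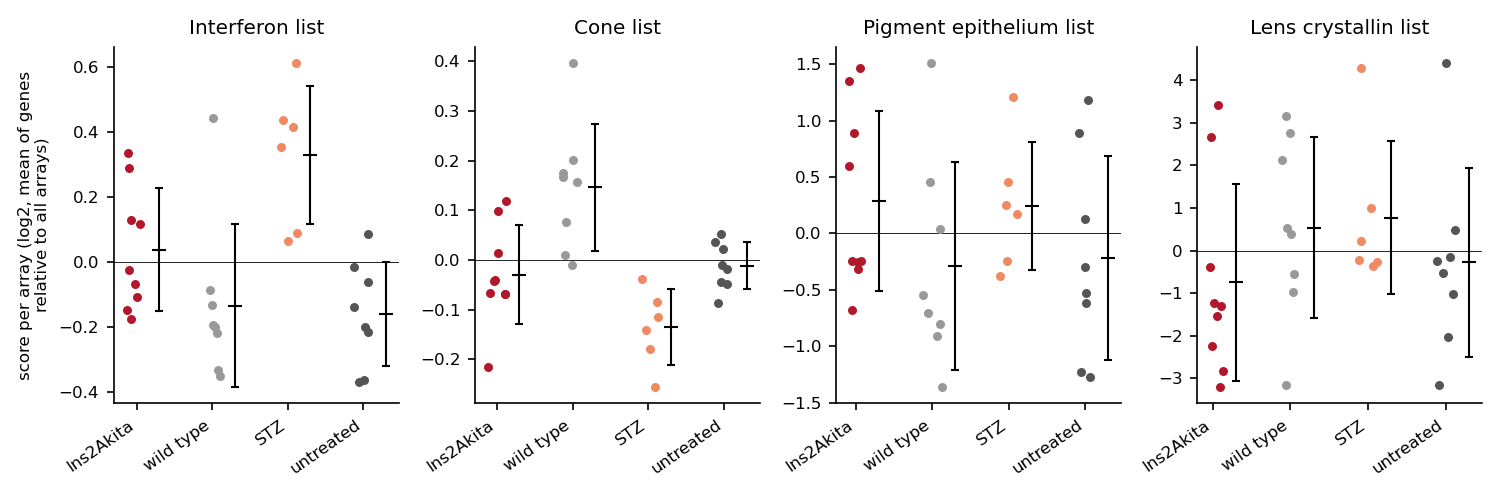
The score of each array (points; log2, mean of a list's genes relative to all arrays) is drawn with group means and SD for the interferon, cone, pigment epithelium and lens lists. The interferon scores of STZ arrays run from 0.066 to 0.612, against -0.367 to 0.086 on untreated arrays, and WT array 7 stands out at 0.444.

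The effects of the models were tested against each other, and their difference passed for 3 of 16743 probes (0.0179%), with 1449 at an unadjusted p under 0.05. Of these 3, Rpl23 alone is among the shared calls. Map1b, a microtubule protein of growing axons, had a difference of 0.47 in Ins2Akita minus WT and -0.21 in STZ minus untreated. Its other probes gave shared values of -0.21, -0.38 and -0.11, and the -0.38 was itself called lower (adjusted p = 0.0057), with -0.33 in the Ins2Akita cohort and -0.45 in the STZ cohort. Gm5347, a predicted gene, was at -0.74 in the Ins2Akita cohort and 0.15 in the STZ cohort. Mef2c, a neuronal transcription factor, and Xrcc6, the Ku70 DNA repair protein, came next and did not pass. Of the 556 shared calls, 99 had an unadjusted p under 0.05 for the difference between the models.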

How the data were processed

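Retinal RNA was hybridised to 31 Illumina BeadChip arrays in 1 colour, after Trizol extraction, DNase treatment and Ambion TotalPrep labelling per the labels' protocols. The authors deposited probe intensity on a linear scale, already background-subtracted and scaled to a mean of 351.836 on every array as the values show, each with a detection p-value from the authors. A second deposited table of intensity (mean 403.64 per array) is a linear function of it. BeadStudio is named per the submitters' processing notes, without version or settings. Since scaling preceded deposit, differences in total signal cannot be seen.

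Values were normalized with neqc of limma 3.58.1 (R 4.3.3; data.table in version 1.17.8; offset 16, detection p used), giving log2 intensity, which understates folds of dim probes. Probes detected at p under 0.05 on at least 6 arrays were kept, 16743 of 25697, and 6966 were detected on 0 arrays. The platform annotation named 23978 probes with 1 symbol and 1719 with none, and 23962 matched RefSeq, whose assembly was used for names and promoter windows. A gene was read on its brightest probe of 11172 genes. The shared effect came from lmFit and eBayes with terms for diabetes and cohort. The cohorts' own effects and their difference came from a model of 4 group means with one spread. Tests were two-sided with Benjamini-Hochberg adjustment over the 16743 probes. The code was run on simulated data of independent noise, without BeadChip, cohort or tissue effects, which does not test the calls made on these arrays. Lists got counts and medians only. Array data have no read depth, and the number of arrays limits precision.

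The members, the 40 gene lists and the rule for named genes were chosen with earlier results of these data known. Named genes are the 12 largest rises and 12 largest falls among called genes, the 10 smallest p, up to 4 called members of each list or else its member of smallest p, always Ins2, Txnip, Gfap, Vegfa, Chrnb1 and Egr1, and 5 genes for the model difference. Ifi27, Gbp3 and Trim30a were named outside this rule, after their values were seen, to complete a count. Unnamed gene models and near-identical families were skipped among the largest changes. Alternatives covered the normalization, the filter, the deposited second table, the model, BeadChip, neighbouring-tissue covariates, probe choice and each array left out. Promoter windows were searched with Python 3.11.15 and pandas 2.3.3 for exact letters on both strands, the first listed window per gene. Figures used matplotlib 3.10.9.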

Additional observations from a re-analysis of the deposited data

Results flagged for a closer look

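An array far from the other arrays of its group was found for 30 of 352 combinations of gene and group, and chance alone gives about 1 in 20. WT array 7 was high for 7 genes: Ifi27l2a at 6.99, Ifitm3 at 9.93, Ifitm2 at 9.35, Oasl2 at 9.03, Rnase4 at 7.18, Tspan14 at 8.18 and Tkt at 11.31, as log2 intensity. All but Tkt rose in diabetic retinas, so that this non-diabetic array runs against their shared change. Without it the shared change was 1.19 for Ifi27l2a, 0.81 for Ifitm3, 0.71 for Ifitm2, 0.55 for Oasl2 and 0.42 for Tspan14. That of Tkt was -0.17 without it, against -0.21 with it. The interferon members called without it are given in the report.

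Among the other WT arrays, array 5 was high for Opn1sw (8.39) and Abca4 (12.33), array 6 was high for Rpl19 (10.80) and Pfkl (12.02) and low for Lamc1 (6.99), array 8 was low for Nlrc3 (6.16), and array 1 was high for Cspg4 (6.01). Among STZ arrays, array 1 was high for Ndufb5 (10.85), Atp1b2 (12.54) and Mef2c (11.41) and low for Cspg4 (4.72). STZ array 3 was high for Txnip (7.61), and array 4 was low for Cpsf2 (6.29) and high for Cct3 (10.66) and for the lens gene Crygn (7.53). STZ array 5 was high for Ckmt2 (7.54) and low for Gbp7 (5.28). Among Ins2Akita arrays, array 2 was low for Ch25h (4.49), array 6 high for Crygn (7.41) and array 9 low for Uchl1 (9.35). Untreated array 1 was high for Rin3 (6.94), and array 2 was low for Gpx4 (11.13) and high for Crygn (6.38).

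The effects of the models differed by the test of the difference itself for 3 genes. Ins2Akita minus WT, less STZ minus untreated, was 0.68 for Map1b, 0.70 for Rpl23 and -0.89 for Gm5347.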

How the results depend on the processing

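Of 66 called genes named, 47 kept their call with each of the 31 arrays left out in turn and 27 of these also under every other alternative that kept the gene, up to 15, among them Chrnb1, Ch25h, Minar2, Nlrc3, Rin3, Podxl, Csrp3, Opn1sw, Gnat2, Kcne2, Oasl2 and Rsad2. The 19 that lost it with at least 1 array left out were Abca4, Cct3, Gpx4, H2-Aa, Ifitm2, Lamc1, Lcn2, Mmp9, Pcp2, Pde6a, Rnase4, Slc24a1, Slc5a7, Slc7a11, Spsb1, Tef, Timp2, Tkt and Vegfa, with adjusted p up to 0.090 for Lamc1. Leaving out single arrays gave 329 to 819 shared probe calls, 149 to 374 higher and 180 to 445 lower, with fewest without WT array 6 and most without STZ array 5. It was 349 without Ins2Akita array 4 and 370 without Ins2Akita array 6. The range was 8 to 15 for interferon members that rose, 5 to 10 for ribosomal members that fell, 470 to 781 probes for Ins2Akita minus WT, 2 to 24 for STZ minus untreated and 1 to 9 for the difference of the models. The 24 arose without WT array 7, although WT arrays enter that contrast only through the spread that all groups share. The normalization was not redone when an array was left out.

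Median scaling in place of quantile normalization gave 318 shared calls, 149 higher and 169 lower, and 1 ribosomal member that fell. The deposited second table gave, after quantile normalization, 611 shared calls, 10 for STZ minus untreated and 6 for the difference of the models. As deposited it gave 3192, of which 424 higher and 2768 lower, with a median of all probes of -0.060, and 3953 for Ins2Akita minus WT, 2 for STZ minus untreated and 12 for the difference. Gfap then reversed to -0.053. With no filter on dim probes the difference of the models was called for 6 probes. Averaging a gene's probes turned Rpl23 to -0.013 and Map1b to -0.14. Neighbouring-tissue covariates gave 166 shared calls, 82 higher and 84 lower, with 3 interferon members, 1 ribosomal member, 434 calls for Ins2Akita minus WT and 0 for STZ minus untreated. The cause was not tested for any of these.

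Leaving out arrays by tissue score was chosen after seeing the data. Without Ins2Akita array 8 and WT array 7 there were 14 interferon members, 5 ribosomal members and 17 calls for STZ minus untreated. Without the 4 arrays of the highest pigment epithelium score there were 237 shared calls, 109 higher and 128 lower, 2 ribosomal members, 213 calls for Ins2Akita minus WT and 1 for the difference. Replicate numbers recur across groups and equal the position on the BeadChip for 30 of 31 arrays. Arrays of the same number did not deviate together (median correlation -0.035 over 42 pairs, against -0.028 over 316 pairs of different numbers), so they were not treated as pairs. The replicate block gave 609 shared calls and kept 62 of the 66 genes. BeadChip as a random block gave 816 and kept all 66, but no chip holds both states. Signal over background limits the dim probes of Ch25h, Adamts19, H2-Eb1, H2-Aa, Gfap, Cspg4 and Zpld2.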

Other observations

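Some called genes outside the rule for named genes and outside the gene lists have known retinal or immune roles, and were picked after their values were seen. Genes of the same roles that were not called or went the other way were not counted. The picked genes therefore give no share of photoreceptor or immune genes that changed. Photoreceptor genes were among those that fell. Rd3, an inhibitor of the guanylate cyclases of photoreceptors, fell by 0.31 (SE 0.061, limma adjusted p = 0.0070), with -0.31 in Ins2Akita minus WT and -0.30 in STZ minus untreated. Nxnl1, the source of the rod-derived cone viability factor, fell by 0.23 (adjusted p = 0.0072), and all 4 of its probes lay below 0, between -0.15 and -0.30. Ankrd33, a photoreceptor transcriptional cofactor, fell by 0.22 (adjusted p = 0.0072), with -0.22 and -0.23 in the cohorts. Mpp4, a scaffold of photoreceptor terminals, fell by 0.22 (adjusted p = 0.025).

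Innate immune genes were among those that rose. Eif2ak2, the kinase PKR that halts translation on viral RNA, rose by 0.35 (SE 0.087, limma adjusted p = 0.022), with 0.19 in the Ins2Akita cohort and 0.56 in the STZ cohort. Lgals9, the galectin-9 gene, rose by 0.47 (adjusted p = 0.037), and Ccl12, a monocyte chemokine, by 0.40 (adjusted p = 0.032), with its other probe at 0.15. Il33, an alarmin that Muller glia can express, rose by 0.27 (adjusted p = 0.035), and Nod1, a sensor of bacterial cell wall, by 0.31 (adjusted p = 0.032). Nfat5, the transcription factor of the hypertonic response, rose by 0.25 (SE 0.048, adjusted p = 0.0069) on its brightest probe and was at 0.10 on the other. Ltb4r1, a receptor for leukotriene B4, fell by 0.25 (adjusted p = 0.012) beside the fall of Alox5ap.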
